A study of Homo sapiens with 20 samples.

Results

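The genes described here are 10 members of the NF-κB system, chosen by name: the subunits NFKB1, NFKB2, RELA, RELB and REL, and the feedback genes NFKBIA, NFKBIE, TNFAIP3, BIRC3 and TRAF1. They are 10 of the 19617 genes with a matched transcript, and were chosen with earlier results of these data known. They were followed by SLAM-seq in MM1.S cells, a multiple myeloma line labelled as wild type. Cells received 10 nM dCBP-30, a degrader of the acetyltransferases CBP and p300, or the vehicle DMSO, for 2, 6 or 24 h, with 3 libraries in each of these 6 groups. RNA made in the last 1 h was labelled with 4-thiouridine (4sU). Another 2 libraries had no 4sU and give the background of the assay. All libraries come from 1 cell line, and nothing in the labels says that replicates were separate cultures, so p-values measure the spread between these libraries only.

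In the assay, alkylated 4sU gives a C where the RNA had U, so reads that hold such a change, the T>C reads, mark new RNA, while total reads hold old and new RNA together. Levels are given in RPM, that is the gene's reads, or T>C reads, for every 1000000 total reads of the library after TMM scaling. The libraries held between 12440700 and 18729086 reads on genes. T>C reads were 6.08%, 6.38% and 8.31% of them under DMSO at 2, 6 and 24 h, 5.54%, 4.98% and 6.38% under dCBP-30, and 0.801% without 4sU. The number of conversions in a T>C read at 24 h was 1.47 ± 0.043 (SD, n = 3) with dCBP-30 and 2.48 ± 0.025 with DMSO, and the means of the other 4 labelled groups lay between 2.17 and 2.24. The 8 plasma cell markers had a summed level of at least 518 RPM in every labelled library. This lowest level was under dCBP-30 at 24 h, when DMSO libraries held at least 5088 RPM. Markers of B cells, monocytes and stroma stayed at or below 0.549, 0.604 and 1.56 RPM, and the 2 T cell markers summed to 2.08 to 15.7 RPM. Each gene is represented by its transcript with the most reads. These are bulk samples, in which fewer cells and less RNA per cell cannot be told apart.

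NF-κB factors are dimers of Rel-family proteins that bind κB sites in DNA. RELA, RELB and REL carry activation domains, whereas NFKB1 and NFKB2 encode the precursors p105 and p100, which are processed to p50 and p52. In resting cells inhibitors of the IκB family hold the dimers in the cytoplasm. Kinase signalling removes the inhibitors, and the released dimers activate, among others, the genes of their own inhibitors. NFKBIA encodes IκBα and NFKBIE encodes IκBε. TNFAIP3 encodes A20, a ubiquitin-editing enzyme that damps signalling upstream, BIRC3 encodes the ubiquitin ligase cIAP2, and TRAF1 encodes an adaptor of TNF receptors. Myeloma cells often carry activating lesions in this pathway, and CBP and p300 are coactivators of RELA.

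Promoter windows of 300 bases (250 before to 50 after the start site, RefSeq, GRCh38.p14) were listed for 8 of the 10 genes. Matches to the 10-base κB consensus, searched on both strands, were found for 6 genes, compared with 11.3% of all 35116 windows and 13.3% of all genes listed. Stretches around the matches are shown because κB sites are the sequence through which NF-κB acts on its own genes. They are written 5′ to 3′ on the gene's strand, with the matches in capitals.
TNFAIP3, chr6:137867177-137867228, plus strand: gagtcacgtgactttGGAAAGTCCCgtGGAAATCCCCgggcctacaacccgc
BIRC3, chr11:102317270-102317373, plus strand: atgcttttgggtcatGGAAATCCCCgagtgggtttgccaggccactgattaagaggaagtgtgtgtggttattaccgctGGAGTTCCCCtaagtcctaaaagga
NFKBIA, chr14:35404806-35404845, minus strand: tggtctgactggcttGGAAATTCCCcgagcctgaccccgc
NFKB1, chr4:102501295-102501334, plus strand: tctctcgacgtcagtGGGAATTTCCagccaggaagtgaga
NFKB2, chr10:102394456-102394524, plus strand: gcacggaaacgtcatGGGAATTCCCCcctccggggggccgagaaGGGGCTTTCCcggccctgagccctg
REL, chr2:60881512-60881552, plus strand: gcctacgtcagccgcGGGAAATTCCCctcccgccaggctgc

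TNFAIP3 held 2 separate matches, which begin 67 and 55 bases before the start site, and BIRC3 held 2, at 199 and 135 bases before it. NFKBIA held 1 match at 81 bases and NFKB1 1 match at 49 bases before the start, the latter in 1 of its 2 windows. NFKB2 held matches in 2 of its 3 windows, of which 1 is shown, and in NFKB2 and REL some matches overlap each other. No match lay in the 2 windows of RELA or in the 3 of TRAF1. NFKBIE and RELB were not listed. A match is a description of the sequence, and binding was not measured.

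At 2 h dCBP-30 lowered new RNA of the feedback genes more, in the median, than that of the subunits. All 4 tested feedback genes and 1 of the 5 subunits, RELB, were then called lower in T>C reads. A call needed an adjusted p under 0.05 (edgeR's quasi-likelihood test, Benjamini-Hochberg over 10086 genes) and more than a 2-fold change. Among all genes tested, 7.14% were lower and 1.66% higher at 2 h. The median log2 change was -3.31 for the feedback genes and -0.83 for the subunits, against 0.05 for all genes. At 6 h NFKBIA, TNFAIP3, BIRC3, NFKB2, RELB and REL were lower (all genes: 17.1% lower, 2.36% higher), with medians of -2.62, -1.08 and -0.27 in the same order. At 24 h only TNFAIP3 and BIRC3 were lower, when 31.2% of all genes were lower and 2.17% higher. No member was called higher in T>C reads at any time. TRAF1 had too few T>C reads for the test. Its 3 DMSO libraries at 2 h held 0 T>C reads of 198 reads, which allows a share of up to 1.52% (3 counts; counting error only).

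**Figure D1:**
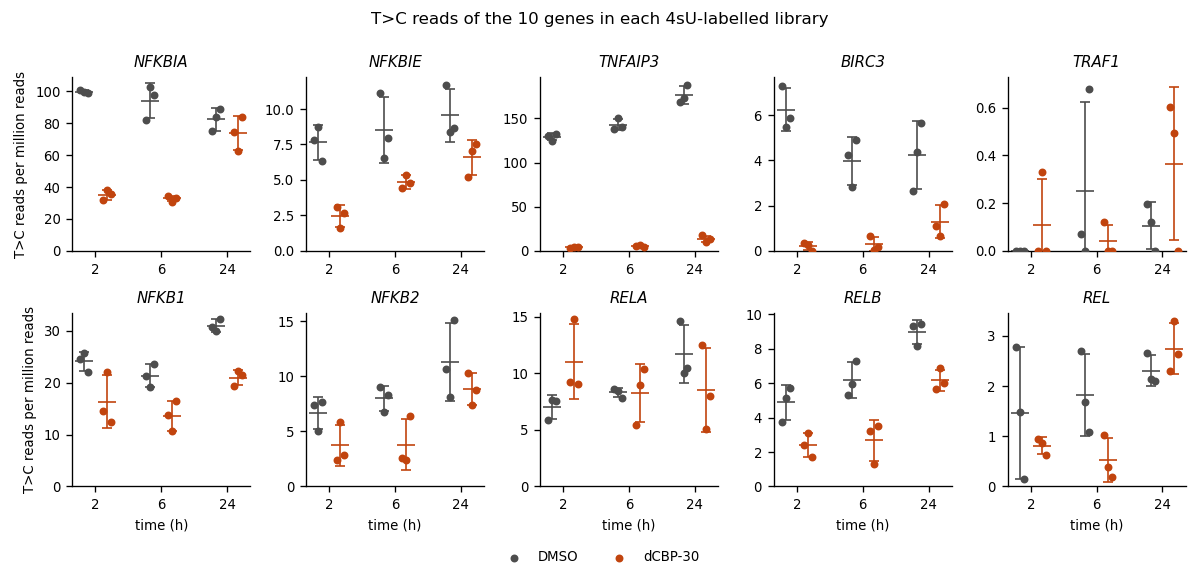
T>C reads in RPM (vertical axis, linear from 0) of each gene at 2, 6 and 24 h. Points are single libraries, horizontal bars are group means and error bars 1 SD (n = 3). The dCBP-30 libraries of TNFAIP3 sit between 3.28 and 17.6, far below all DMSO libraries. Those of NFKBIA at 24 h, at 62.7 to 83.9, overlap the DMSO libraries (75.0 to 89.3) but reach lower.

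TNFAIP3, called lower in T>C reads at each of the 3 times, was measured on a 3′ UTR on chromosome 6, plus strand (137871771 to 137883278). This 3′ UTR is that of a nonsense-mediated decay model, with 8 parts and 4055 bases. The T>C level of TNFAIP3 under DMSO at 2 h was 131, 125 and 132 RPM, and under dCBP-30 it was 3.28, 4.82 and 4.13 RPM. The groups did not overlap, and T>C reads were 31.4-fold lower (log2 fold change -4.97 ± 0.19 SE, adjusted p = 6.66e-30 by edgeR). At 6 h the DMSO libraries held 138, 150.5 and 141 RPM and the dCBP-30 libraries 5.39, 6.99 and 4.84 RPM, a 24.8-fold difference. The dCBP-30 libraries at 24 h held 17.6, 10.5 and 13.1 RPM beside 169, 174 and 187 RPM under DMSO, and the difference was 12.9-fold (adjusted p = 3.04e-26). New A20 mRNA was thus low at each time.

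BIRC3, on chromosome 11, plus strand (102337100 to 102339403), is a low gene here. Its T>C level under DMSO at 2 h was 7.31, 5.50 and 5.90 RPM. Under dCBP-30 it was 0.345, 0.264 and 0 RPM, from 8 T>C reads in all against 252 under DMSO, and the fitted difference was 31.3-fold (log2 -4.97 ± 0.66 SE, edgeR adjusted p = 1.55e-08). The groups did not overlap. At 6 h the levels were 4.25, 2.82 and 4.88 RPM under DMSO and 0.659, 0.0555 and 0.184 RPM under dCBP-30, a 13.1-fold difference. At 24 h dCBP-30 libraries held 1.09, 0.659 and 2.09 RPM against 2.66, 4.35 and 5.66 RPM, still without overlap and 3.27-fold lower (adjusted p = 0.00528). This last call was lost when libraries were scaled by T>C reads (log2 -1.09, adjusted p = 0.102), by total reads without TMM (-1.19, 0.0768), or in DESeq2 with size factors from T>C reads (adjusted p = 0.108).

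NFKBIA, measured on the 4-part 3′ UTR of a nonsense-mediated decay model on chromosome 14, minus strand (35401534 to 35403341), showed a fall and then a rise towards DMSO. T>C levels under DMSO were 101, 99.7 and 98.9 RPM at 2 h and 82.0, 103 and 97.7 RPM at 6 h. Under dCBP-30 they were 32.0, 38.1 and 35.6 RPM at 2 h and 34.4, 30.9 and 33.3 RPM at 6 h. The groups stood apart at both times, by 2.83-fold (adjusted p = 2.94e-12) and 2.87-fold (1.08e-12). By 24 h the levels were 74.4, 62.7 and 83.9 RPM under dCBP-30 and 75.0, 83.8 and 89.3 RPM under DMSO. These overlapped, with a log2 change of -0.17 ± 0.15 SE (adjusted p = 0.394), while the median gene had fallen by 0.69 on the log2 scale. Relative to the other T>C reads NFKBIA was higher at 24 h (log2 0.48, adjusted p = 0.00576, when scaled by T>C reads).

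NFKBIE, on chromosome 6, minus strand (44258166 to 44259221), held 3.11, 1.58 and 2.69 T>C RPM under dCBP-30 at 2 h and 7.85, 8.74 and 6.35 under DMSO. It was 3.13-fold lower (log2 -1.64 ± 0.32 SE, edgeR adjusted p = 8.07e-05). At 6 h the groups still did not overlap, at 4.43 to 5.38 against 6.57 to 11.1 RPM. The log2 difference of -0.81 (adjusted p = 0.0385) lay within 2-fold. At 24 h it was -0.54 (adjusted p = 0.145). IκBα and IκBε mRNAs thus both had new levels nearer to DMSO at 24 h than at 2 h.

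With scaling by total reads and TMM, the subunit NFKB1 (p105/p50, chromosome 4, plus strand, 102582581 to 102617302, in 16 parts) was lower by a similar amount throughout. Under dCBP-30 its T>C levels were 14.6, 22.0 and 12.3 RPM at 2 h, then 13.8, 10.7 and 16.4 at 6 h, then 19.3, 22.2 and 21.4 by 24 h. Under DMSO they were 24.5, 25.7 and 22.0 RPM, then 21.3, 19.1 and 23.5, then 30.7, 29.9 and 32.3. At 2 h the groups touched at 22.0 RPM, and at 6 and 24 h they were apart. The log2 changes were -0.56, -0.65 and -0.56 (SE 0.20 each), with adjusted p of 0.0584, 0.0113 and 0.0171, all within 2-fold. The median of all genes was 0.05, -0.27 and -0.69 at these times. At 24 h the NFKB1 change was 0.09 when scaled by T>C reads and 0.19 in DESeq2 with size factors from T>C reads.

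NFKB2 (p100/p52; chromosome 10, plus strand, 102402374 to 102402524) was measured on a 3′ UTR of 148 bases with 31 T positions. Its T>C level was 2.57, 2.39 and 6.44 RPM under dCBP-30 and 8.99, 6.77 and 8.27 RPM under DMSO at 6 h, and it was called lower there (2.11-fold, adjusted p = 0.0112). Its labelled share there was 4.31, 3.82 and 7.35% of its reads, against 2.39 and 1.20% without 4sU. The call was lost with the background subtracted (adjusted p = 0.159), with either scaling by T>C reads (0.0785 in edgeR, 0.127 in DESeq2), without TMM (0.0998) and with reads summed over transcripts (0.0671). Leaving out dCBP-30 replicate 1 or 2 gave 0.0856 and 0.1, and leaving out DMSO replicate 1 brought the change within 2-fold (log2 -0.99). At 2 h the log2 change was -0.83 (adjusted p = 0.113). Without dCBP-30 replicate 2, whose 5.87 RPM lay within the DMSO range of 5.01 to 7.69, it was -1.33 (0.0142). The labelled share of NFKB2 at 2 h was 2.73% under dCBP-30, beside 1.86% without 4sU. With this background subtracted, the log2 ratio of the 2 h shares went from -0.64 to -1.46.

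RELB, the transactivating partner of p52 (chromosome 19, plus strand, 45037788 to 45038192), held 2.42, 3.10 and 1.69 T>C RPM under dCBP-30 and 3.77, 5.15 and 5.75 RPM under DMSO at 2 h. These did not overlap, and the difference was 2.04-fold (adjusted p = 0.0464). At 6 h the levels were 3.23, 1.33 and 3.49 against 5.31, 5.97 and 7.32 RPM, a 2.31-fold difference (adjusted p = 0.00507). At 24 h they were 5.69, 6.87 and 6.01 against 9.33, 8.17 and 9.43 RPM, apart but with adjusted p = 0.192. The 2 h call was not firm: it was lost without dCBP-30 replicate 1 or 3 or DMSO replicate 2 or 3 (adjusted p from 0.113 to 0.233), and under 6 other settings (0.05 to 0.0896). The 6 h call was lost without dCBP-30 replicate 2 (0.0779). Without TMM (log2 -0.89, adjusted p = 0.0538) and with reads summed over transcripts (-0.95, 0.087) it missed both the adjusted p and the 2-fold limit. It came within 2-fold alone under scaling by T>C reads (-0.91, 0.044) and in DESeq2 with size factors from T>C reads (-0.85, 0.038).

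REL (c-Rel; chromosome 2, plus strand, 60922533 to 60931610) gave few T>C reads, and its 3′ UTR overlaps a long non-coding gene on the same strand. At 6 h the T>C level was 1.02, 0.388 and 0.184 RPM under dCBP-30 and 2.69, 1.68 and 1.09 under DMSO. It was called lower (3.39-fold, adjusted p = 0.0476). The call was lost without dCBP-30 replicate 2 or 3 or DMSO replicate 1 or 2 (adjusted p from 0.0722 to 0.214), and under 6 other settings (0.0838 to 0.291). The labelled share at 6 h was 37.8, 10.8 and 5% under dCBP-30, beside 13.7 and 0% in the libraries without 4sU. At 2 h the DMSO libraries spread from 0.149 to 2.77 RPM around the dCBP-30 libraries, and at 24 h the log2 change was 0.25 ± 0.61 SE.

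RELA, which encodes p65 (chromosome 11, minus strand, 65653601 to 65655589), was the 1 tested member with a positive T>C change at 2 h. Its T>C level was then 9.23, 14.9 and 9.08 RPM under dCBP-30 and 5.85, 7.69 and 7.54 under DMSO. All dCBP-30 libraries were above all DMSO libraries, with a log2 change of 0.65 ± 0.28 SE that missed the threshold (adjusted p = 0.15). At 6 h the groups overlapped (log2 -0.01, adjusted p = 0.989), and at 24 h the levels were 12.5, 5.11 and 8.05 against 14.6, 10.0 and 10.5 RPM (log2 -0.46, adjusted p = 0.197).

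**Figure D2:**
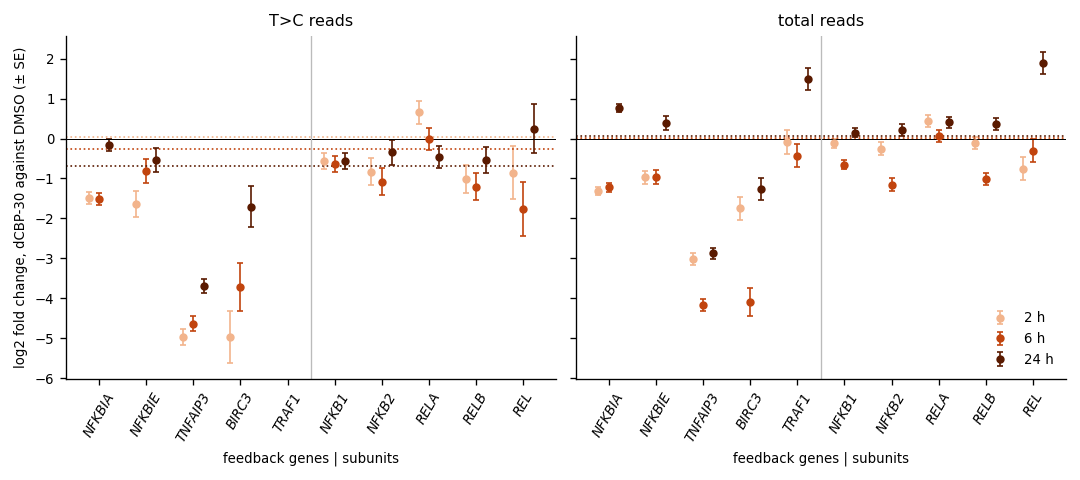
Log2 fold change of dCBP-30 against DMSO with its SE (vertical axis) for T>C reads (left) and total reads (right), with feedback genes left and subunits right of the grey line. Dotted lines are the medians of all genes tested at each time. In T>C reads TNFAIP3 and BIRC3 lie lowest at each time, and in total reads REL and TRAF1 lie highest at 24 h (log2 1.89 and 1.49).

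The change at 24 h was set against that at 2 h as an interaction of treatment and time. New RNA of the 4 tested feedback genes was called less reduced at 24 h: by 3.26 ± 0.84 (log2, SE) for BIRC3 (adjusted p = 0.00209), 1.34 ± 0.21 for NFKBIA (8.49e-07), 1.29 ± 0.24 for TNFAIP3 (1.98e-05) and 1.11 ± 0.43 for NFKBIE (0.0492). The NFKBIE call was lost with the replicate block (adjusted p = 0.0677) and without any 1 of 8 of the 12 libraries (0.0612 to 0.166; these were dCBP-30 replicates 2 and 3 and DMSO replicates 1 and 2 at 2 h, and dCBP-30 replicates 2 and 3 and DMSO replicates 2 and 3 at 24 h). For this contrast calls needed only the adjusted p, and 3.02% of all genes were called higher and 23% lower. The median gene moved the other way, by -0.72. RELA was the 1 member called lower (-1.11 ± 0.40, adjusted p = 0.0309), and that call was lost under scaling by T>C reads (-0.47, 0.467) and without TMM (-0.70, 0.239). Neither direction was called for any member between 6 and 2 h, where 7.35% of all genes were lower and 0.684% higher. Both contrasts use the same 2 h libraries. Under DMSO alone no member was called between 24 and 2 h (all genes: 0.00991% lower, 2.53% higher).

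The directions of the smaller changes at 24 h depend on the scaling. Under scaling by T>C reads the median of all genes at 24 h moved from -0.69 to -0.04, and without TMM factors to -0.16 (at 6 h from -0.27 to 0.04 under both). The subunits' median then went from -0.46 to 0.19, with none of the 5 below 0, and that of the feedback genes from -1.12 to -0.49. TNFAIP3 was at -3.04 (log2). At 2 h the same scaling left both medians within 0.01 of their values.

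Total reads hold older RNA as well. NFKBIA, TNFAIP3 and BIRC3 were called lower at 2 h (all genes: 1.25% lower, 0.464% higher, of 12272 tested), joined by NFKB2 and RELB at 6 h (8.67% lower, 7.47% higher). At 24 h TNFAIP3 and BIRC3 were lower and REL and TRAF1 higher (16.1% lower, 15% higher). TNFAIP3 held 205, 174 and 199.9 RPM under DMSO and 22.9, 29.0 and 19.97 RPM under dCBP-30 at 2 h, an 8.05-fold difference (adjusted p = 3.44e-13). By 6 h the libraries with dCBP-30 were at 10.6, 11.3 and 13.0 RPM and the difference was 17.96-fold. At 24 h it was 7.34-fold, with 26.6 to 39.4 against 226 to 244 RPM. The pool of A20 mRNA was therefore reduced at each time point.

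BIRC3 total reads were lower at each time. They were 4.57, 4.22 and 5.88 RPM under dCBP-30 against 20.6, 16.7 and 12.3 RPM under DMSO at 2 h (3.37-fold lower). At 6 h they were 1.20, 0.555 and 0.490 against 11.3, 13.1 and 14.3 RPM (17.1-fold, adjusted p = 3.7e-10). At 24 h they were 4.71, 3.95 and 6.65 against 9.78, 12.6 and 14.6 RPM, and the log2 change of -1.27 became -0.75 without TMM. The groups did not overlap at any time, and the dCBP-30 libraries at 6 h were below those at 2 and 24 h.

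The inhibitor NFKBIA crossed over. Its total level was 57.7, 64.2 and 58.6 RPM under dCBP-30 at 2 h, against 153, 148 and 148 under DMSO, and 58.3 to 63.1 against 125 to 152 RPM at 6 h. At 24 h it was 188, 177 and 198 RPM under dCBP-30 and 104, 111 and 117 under DMSO. All dCBP-30 libraries were then the higher ones, by 1.69-fold (adjusted p = 7.29e-07, within the 2-fold limit), and by a log2 value of 1.28 without TMM. NFKBIE lay just within 2-fold at 2 and 6 h (log2 -0.98 and -0.96, adjusted p = 0.00064 and 7.13e-05). It passed 2-fold without dCBP-30 replicate 1 (-1.10) or DMSO replicate 1 (-1.01) at 2 h, and without replicate 3 of dCBP-30 (-1.06) or DMSO (-1.04) at 6 h.

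**Figure D3:**
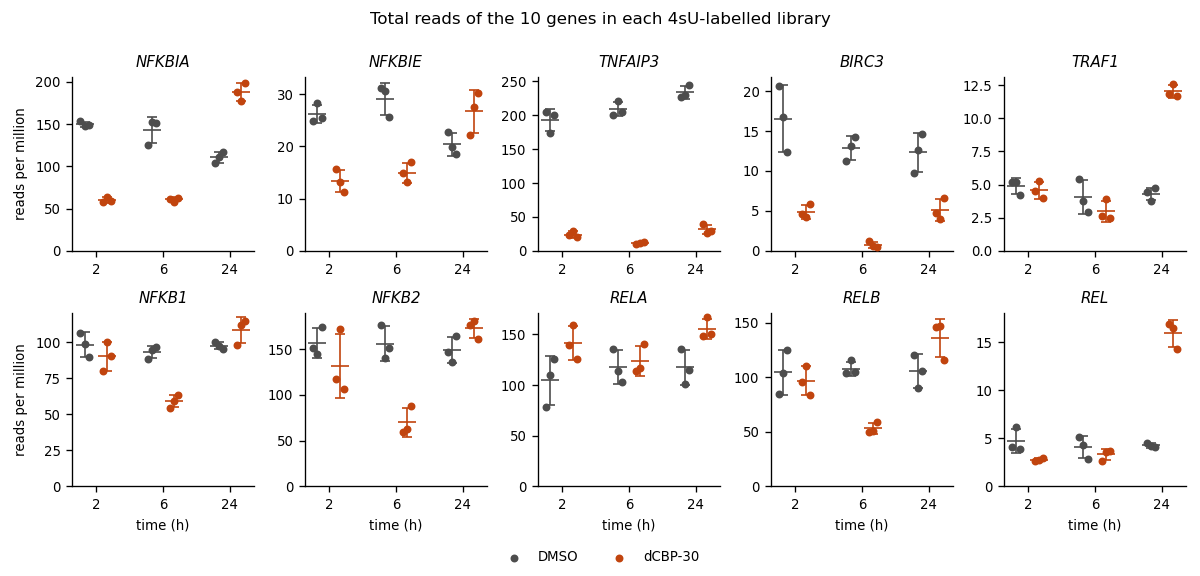
Total reads in RPM (vertical axis, linear from 0) of each gene at 2, 6 and 24 h; points are libraries, bars the group mean with 1 SD (n = 3). At 24 h the 3 dCBP-30 libraries of REL lie between 14.3 and 16.9 RPM, above all DMSO libraries, and those of TRAF1 between 11.7 and 12.6 RPM.

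Total reads of the subunits dipped at 6 h for NFKB2 and RELB. NFKB2 held 59.8, 62.4 and 87.6 RPM under dCBP-30 against 177, 141 and 151 under DMSO (2.23-fold, adjusted p = 2.05e-06). RELB held 49.5, 51.3 and 59.1 against 104, 116 and 105 RPM (2.03-fold, adjusted p = 3.67e-06), and came within 2-fold without dCBP-30 replicate 1 (log2 -0.97) or 2 (-0.99) or DMSO replicate 2 (-0.97). NFKB1 was lower within 2-fold at 6 h (log2 -0.66, adjusted p = 4.29e-05). At 24 h the log2 changes of NFKB1, NFKB2, RELB and RELA lay between 0.15 and 0.40, and without TMM factors, where the median of all genes moved from 0.05 to 0.58, between 0.67 and 0.92. Without these factors the 6 h calls of NFKB2 (log2 -0.84), RELB (-0.70) and NFKBIA (-0.91) also came within 2-fold.

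REL and TRAF1 ended above DMSO. REL total reads at 24 h were 16.9, 16.5 and 14.3 RPM under dCBP-30 and 4.54, 4.23 and 4.06 RPM under DMSO, a 3.71-fold difference (adjusted p = 2.24e-06). At 2 and 6 h REL had been at 2.67 to 3.68 RPM under dCBP-30. TRAF1 rose from 4.41, 3.76 and 4.71 RPM under DMSO to 11.8, 12.6 and 11.7 RPM (2.80-fold, adjusted p = 7.74e-05). New RNA of REL at 24 h was 2.30, 3.30 and 2.63 T>C RPM under dCBP-30 against 2.66, 2.15 and 2.10 under DMSO. Its log2 change of 0.25 ± 0.61 SE was not called and ranged from -0.655 to 1.015 under other settings. For TRAF1 20 of 663 reads carried a conversion (3.02%, exact 95% interval 1.85 to 4.62%, counting error only), against 5 of 196 under DMSO. By library the dCBP-30 counts were 11 of 216, 9 of 229 and 0 of 218 reads. These shares, from 0 to 5.09%, lay beyond both ends of the interval. The mean T>C level of TRAF1 was 0.365 against 0.105 RPM, from too few T>C reads for a test. Without 4sU 0.68% of TRAF1 reads carried a conversion. The 2 T cell markers moved at the same time: their summed level, all from CD3E with CD3D at 0 reads, was 10.7 to 15.7 RPM under dCBP-30 and 3.76 to 7.19 under DMSO at 24 h. The summed plasma cell markers were 518 to 700.5 against 5088 to 5202 RPM. The part of either in these results was not tested.

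The labelled share, the T>C reads as a percentage of the gene's own reads, needs no library scaling. It was tested for 8 members, since BIRC3 had under 10 reads in 1 library and TRAF1 too few T>C reads for the filter. Among these 8, under DMSO at 2 h, it was highest in TNFAIP3 (67.1%) and NFKBIA (66.6%), which did not differ beyond their spread. REL (31.9%), NFKBIE (29.1%) and NFKB1 (24.5%) followed, and RELA (6.83%), RELB (4.67%) and NFKB2 (4.25%) were lowest. Most reads of TNFAIP3 and NFKBIA were thus labelled within 1 h, and few of those of RELA, RELB and NFKB2. Outside the test, BIRC3 had 38.8% and TRAF1 0%. The REL libraries spread from 3.85 to 67.9%, and 1 library without 4sU gave 13.7% for REL.

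At 2 h the share of TNFAIP3 fell from 63.6, 71.6 and 66.2% under DMSO to 14.3, 16.6 and 20.7% under dCBP-30 (adjusted p = 8.81e-18). It was the 1 member called (all genes, adjusted p alone: 6.2% lower, 1.38% higher), and NFKB1 was added without dCBP-30 replicate 2 (0.0204). That of BIRC3, not tested, went from 35.4, 32.9 and 47.9% to 7.55, 6.25 and 0%. The NFKBIA share stayed closer, at 55.5, 59.3 and 60.8% against 65.9, 67.3 and 66.6%, while its T>C and total reads had both fallen. At 6 h NFKBIA and TNFAIP3 were lower (all genes: 9.45% lower, 0.242% higher). NFKBIA had 52.8 to 55.7% against 64.5 to 67.7% (adjusted p = 0.0473), and this was lost without any 1 of the 6 libraries (0.0652 to 0.136). TNFAIP3 had 37.3 to 62.1% against 68.2 to 68.8%, and was lost without dCBP-30 replicate 3 (adjusted p = 0.194) and with reads summed over transcripts (0.0813).

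At 24 h the share was lower in 7 of the 8 tested members, NFKB2 being the exception (all genes: 28.9% lower, 0.2% higher). The log2 median was -0.92 for the 3 feedback genes and -0.83 for the 5 subunits, beside -0.65 for all genes. NFKBIA fell from 72.0, 75.2 and 76.4% to 39.6, 35.4 and 42.3% and TNFAIP3 from 74.5, 75.5 and 76.7% to 44.6, 39.4 and 44.6%. NFKBIE, NFKB1, RELB, RELA and REL were called as well. RELB was lost without dCBP-30 replicate 1 (adjusted p = 0.0677) or DMSO replicate 2 (0.0502), RELA without dCBP-30 replicate 2 (0.118), and REL without any 1 of the 6 libraries (0.0553 to 0.0996). The fewer conversions per T>C read at 24 h held for the members as well: 1.48 against 2.53 in NFKBIA and 2.07 against 3.15 in TNFAIP3. Counted as conversions over covered T positions, the NFKBIA value was 0.289 of that under DMSO, against 0.525 as a share of reads. What part labelling had in these shares was not tested.

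Over the 3 time points together, with treatment permuted within each, the shares of NFKBIA and TNFAIP3 were lower by a mean of 18.6 and 33.7 percentage points (two-sided exact permutation test, p = 0.00025 each, the smallest possible). The exact p was 0.00325 for RELB, 0.0085 for NFKB1, 0.0163 for REL, 0.0223 for NFKBIE, 0.0425 for NFKB2, 0.0518 for BIRC3, 0.167 for RELA and 0.85 for TRAF1. These are not adjusted for the number of genes. At 6 h the mean share was not lower under dCBP-30 for NFKB1 (23.0 against 22.9%) and NFKBIE (33.0 against 29.4%). The same held for NFKB2 (5.16 against 5.13%) and BIRC3 (34.2 against 31.1%), while the other members were lower then. The permutation test was run on the members only. For all genes tested, the median log2 change of the share at 24 h was -0.65.

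**Figure D4:**
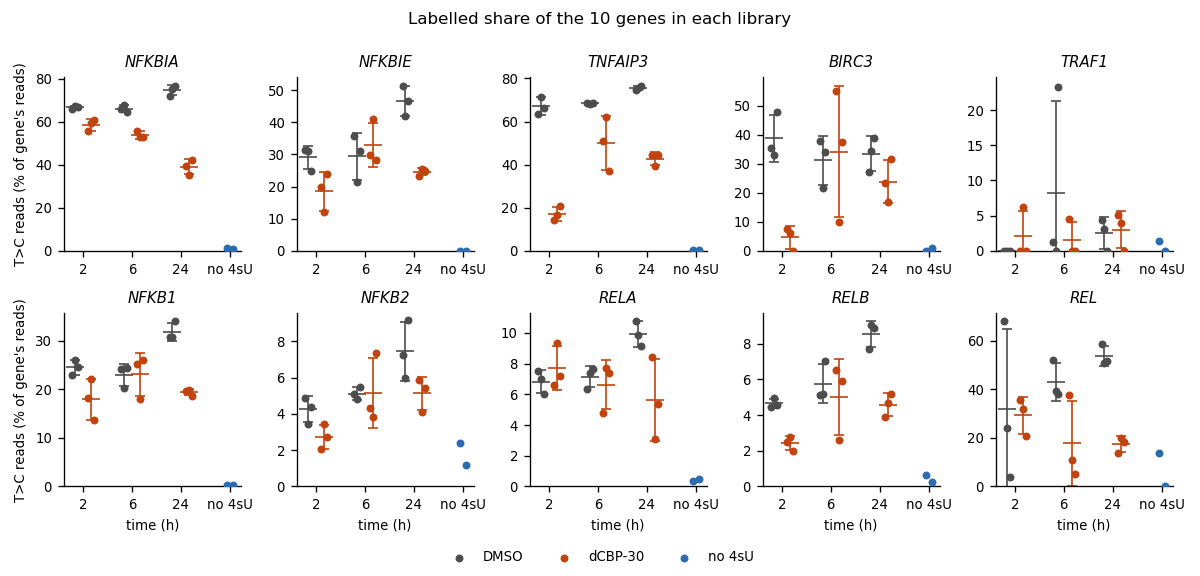
Labelled share, T>C reads as a percentage of the gene's reads (vertical axis, linear from 0), at 2, 6 and 24 h and in the 2 libraries without 4sU; points are libraries, bars the group mean with 1 SD (n = 3). At 24 h the NFKBIA libraries under dCBP-30 lie between 35.4 and 42.3% and those under DMSO between 72.0 and 76.4%.

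The wider pathway was followed with 43 further components, of which 40 were tested in T>C reads. At 2 h 7 were lower and 3 higher. At 6 h 11 were lower, at 24 h 9, and none was higher. Among all genes 7.14%, 17.1% and 31.2% were lower at the 3 times and 1.66%, 2.36% and 2.17% higher. Their median log2 changes were -0.05, -0.50 and -0.39, beside 0.05, -0.27 and -0.69 for all genes. Among the receptors tested, TNFRSF17 (BCMA), also a plasma cell marker here, was lower by 12.0-, 105- and 25.1-fold at 2, 6 and 24 h. TNFRSF13B (TACI) was lower by 13.4-, 29.3- and 24.4-fold, and TNFRSF1A (TNF receptor 1) by 8.93-, 7.15- and 3.22-fold. CD40 was not called, with log2 changes of -1.06, -0.37 and -0.55. TRAF5, the atypical IκB protein NFKBIZ, the kinase IKBKE and the paracaspase MALT1 were lower at 2 h by 8.35-, 3.01-, 12.7- and 2.32-fold. Higher at 2 h were the adaptor MYD88 (3.95-fold), the kinase CHUK (IKKα; 3.01-fold) and RIPK1 (2.16-fold). TRAF5, NFKBIZ and MALT1 were again lower at 6 h, together with TRAF2, TRAF3, TNIP1, IRAK1 and BCL3 (19.7-fold), another atypical IκB protein. MALT1, TRAF2, TRAF3, IRAK1, MAP3K14 (NIK) and OTULIN were lower at 24 h.

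Of 35 further genes known to respond to NF-κB, 13 had enough T>C reads, of which 8, 8 and 6 were lower at 2, 6 and 24 h and none higher. Their medians were -1.93, -2.15 and -0.73, beside 0.05, -0.27 and -0.69 for all genes, so the last pair was close. Of all genes 7.14%, 17.1% and 31.2% were lower and 1.66%, 2.36% and 2.17% higher. This list and that of the components were chosen with earlier results of these data known. RGS1, a regulator of G-protein signalling, held 3 T>C reads under dCBP-30 against 226 under DMSO at 2 h, and 1 against 123 at 6 h. The survival genes BCL2L1 and CFLAR were lower at 2 h by 11.2- and 5.07-fold, the transcription factor IRF1 by 8.44-fold, TNFAIP8 by 10.7-fold, PLEK by 4.18-fold, GADD45B by 3.80-fold and CD74 by 2.12-fold. The same genes were called at 6 h, and at 24 h BCL2L1, PLEK, TNFAIP8, RGS1, CD74 and SOD2 (5.15-fold) were.

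Across the 18 labelled libraries, the T>C profile most like TNFAIP3 was that of CPEB4 (Pearson r = 0.990 of log2(T>C RPM + 0.5)) and of HES1 (0.990). For NFKBIA it was GADD45B (0.973) and ZFP36L1 (0.964), for BIRC3 LITAF (0.966) and RAB30 (0.961), and for NFKBIE ATOSA (0.938) and ST3GAL5 (0.914). Among the subunits, RELB was closest to ARID3B (0.944) and CASP10 (0.931), NFKB1 to MDM4 (0.937) and KDM2A (0.929), NFKB2 to NFATC2 (0.899) and SUN2 (0.896), and REL to ZC3H11A (0.868) and KMT5B (0.860). RELA had the least similar nearest genes, LUC7L (0.785) and TMEM168 (0.778). Among the members, BIRC3 and TNFAIP3 correlated at 0.934 and BIRC3 and NFKBIA at 0.926, whereas RELA was at -0.003 with TNFAIP3 and -0.14 with NFKBIA. The libraries share treatments, times and scaling, so these values describe the profiles and carry no p.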

How the data were processed

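SLAM-seq libraries were prepared from MM1.S cells, 18 labelled with 4sU and 2 without. The authors trimmed the reads with TrimGalore, ran Slamdunk with default parameters on 3′ UTRs of hg38, and deposited raw counts per transcript (all reads, T>C reads, converted and covered T positions), with multimapping and low-quality reads removed and no pooling of replicates. Identifiers were matched to GENCODE 44 (GRCh38) for 91.4% of 97466 rows. Transcripts that share a 3′ UTR repeat the same reads, so each gene took the transcript with the most reads. For NFKBIA, TNFAIP3 and NFKB1 this is a nonsense-mediated decay model, so the canonical transcript was added as an alternative after seeing the data. Depth was 12440700 to 18729086 reads per library.

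edgeR 4.0.16 (R 4.3.3; quasi-likelihood, robust, filterByExpr, minimum count 10) was fitted to all genes over the 18 labelled libraries with group means. T>C reads were scaled by total reads with TMM factors. The protocol's Drosophila RNA was not used here, so T>C levels are relative to total RNA and a change of new RNA per cell was not measured. Calls needed an adjusted p under 0.05 and over 2-fold. The labelled share used the log of the gene's reads as offset, at least 10 reads in each library, and the adjusted p alone. Alternatives were DESeq2 1.42.0, other scalings and filters, background subtraction, each time point alone, reads summed over transcripts, the replicate number as a block, and each library left out. The tests were tried on simulated data. The members and gene lists were chosen with earlier results of these data known. The genes named are the 10 members, the listed pathway genes called in T>C reads at any time, and the 2 most correlated genes of each tested member. Marker lists were those of plasma cells, B cells, T cells, monocytes and stroma. The ATAC-seq and proteomics of the study were not used here.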

Additional observations from a re-analysis of the deposited data

Results flagged for a closer look

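The effect of dCBP-30 on new RNA differed between 24 and 2 h, by the interaction of treatment and time in edgeR's quasi-likelihood test, for 5 members. The log2 change was higher at 24 than at 2 h by 1.34 for NFKBIA, 1.11 for NFKBIE, 1.29 for TNFAIP3 and 3.26 for BIRC3, and lower by -1.11 for RELA. The NFKBIE difference was lost without dCBP-30 replicate 2 or 3 or DMSO replicate 1 or 2 at 2 h, and without dCBP-30 replicate 2 or 3 or DMSO replicate 2 or 3 at 24 h (log2 0.87 to 1.17, adjusted p from 0.0612 to 0.166). The RELA difference was lost without dCBP-30 replicate 2 or DMSO replicate 1 at 2 h, and without dCBP-30 replicate 2 or 3 or DMSO replicate 1 at 24 h (log2 -0.84 to -1.07, adjusted p from 0.0518 to 0.146). Conversions per T>C read, 1.47 under dCBP-30 at 24 h and 2.17 at 2 h, moved with the same contrast, and their part was not tested.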

How the results depend on the processing

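Of 1455 recomputed values of single members, 1281 kept their direction and were judged the same, and 72 changed sign with neither value significant. The same meant the same side of the threshold or, for ratios of mean labelled shares, a move smaller than the SD of the libraries. In T>C reads, 3 members were lower at 6 h and 1 at 24 h under scaling by T>C reads, without TMM factors, and in DESeq2 with size factors from T>C reads, and 3 at 6 h with reads summed over transcripts, in place of 6 and 2. RELA was no longer called between 24 and 2 h (0 members) under the first 2 of these. At 24 h NFKBIA turned to 0.48 and NFKB1 to 0.0904 (log2) when scaled by T>C reads, and to 0.58 (adjusted p = 1.25e-05) and 0.19 in DESeq2 with size factors from T>C reads. The cause of each lost call was not tested. In total reads without TMM factors 2 members were lower at 6 h and 1 at 24 h, in place of 5 and 2. In the labelled share 2 members were lower at 2 h with each time point fitted alone or reads summed over transcripts, in place of 1. At 6 h 1, 0 and 1 were lower with each time point alone, summed reads and the replicate block, in place of 2. Leaving out 1 library gave 3 to 6 members lower in T>C reads at 6 h, 0 to 1 lower between 24 and 2 h, 1 to 2 lower in share at 2 h and 0 to 2 at 6 h. The 3 came without dCBP-30 replicate 2. Same-numbered libraries did not deviate together (correlations from -0.0509 to 0.016), so replicate numbers were not taken as pairs. With the replicate block the T>C call of RELB at 2 h (adjusted p = 0.0601), the NFKBIE difference between 24 and 2 h (0.0677) and the NFKBIA share at 6 h (0.0701) were lost. The canonical transcript moved the 24 h T>C value of NFKBIA to -0.15, and its total reads to 0.71. Low T>C counts limit TRAF1, REL and BIRC3.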
